A study of Mus musculus with 18 samples.

Results

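The genes described here encode proteins of the Z-disc and of the structures that sense mechanical stress in the cardiomyocyte. They are Ankrd1, Csrp3, Fhl1, Fhl2, Xirp1, Xirp2, Actn2, Flnc, Nrap and Ttn. They were chosen by name, with earlier results of these data known, as 10 of the 55450 genes in the count table. All 10 passed the filter on low counts that left 16270 genes to test. The lowest count of any of them in any library was 2432.

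RNA of the left ventricle was sequenced in 18 libraries from male FVB/N mice. Wild type (WT) littermates and mice with cardiac-specific overexpression of Gαq, the alpha subunit of a heterotrimeric G protein that receptors for angiotensin, endothelin and catecholamines activate, received control diet (CD) or chow with 0.5 mg of ertugliflozin (ERTU), an inhibitor of the sodium-glucose cotransporter SGLT2, per g. Both diets ran for 16 weeks and began when the mice were 4 weeks old, so that all hearts are from mice aged 20 weeks. There were 4 libraries of WT CD, 5 of WT ERTU, 5 of Gαq CD and 4 of Gαq ERTU, and the study took each group from separate hearts. The promoter that drives the transgene is not given in the sources used here.

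Totals ran from 15383566 to 20908363 counts per library. Gnaq, the gene overexpressed, stood at 45.5 to 230 CPM (counts scaled to the size and composition of the library) in the 9 WT libraries, at 1641 to 11672 CPM in Gαq CD and at 2236 to 5207 CPM in Gαq ERTU. The 10 cardiomyocyte markers summed to 83742 to 119259.6 CPM per library, and the 10 markers of skeletal muscle to 2.50 to 12.1 CPM. Atrial markers (Myl7, Myl4, Sln, Bmp10, Mybphl) ran from 2.37 to 746 CPM in sum and were high in 1 or more libraries of each group, with the highest value in Gαq CD library 8. Libraries are named by their group and by the number in the count table.

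The Z-disc is the border of the sarcomere, where alpha-actinin (Actn2) crosslinks the thin filaments of neighbouring sarcomeres and where the giant spring protein titin (Ttn) is anchored. Titin spans from the Z-disc to the M-band and bears passive tension. Proteins found at the Z-disc or along titin are known as links between stretch and gene expression in the heart. Among them are the ankyrin repeat protein of Ankrd1 and the LIM proteins of Fhl1, Fhl2 and Csrp3. Filamin C (Flnc) ties the Z-disc to the membrane. Nrap and the Xin repeat proteins Xirp1 and Xirp2 sit where myofibrils end at the intercalated disc. Ankrd1 is a widely used marker of haemodynamic load.

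Reference sequence upstream of the start was examined for the genes that differed between genotypes. RefSeq (build GRCm38.p6) gave 13 start sites for 9 of the 10 genes, all but Xirp1. The 250 bases before each were searched on both strands for 4 motifs known from cardiac genes, the MCAT motif of TEAD factors (CATTCC), the CArG box of serum response factor, the MEF2 box and, as bound by the factors of that name in the heart, GATAA, here called GATA. The sequences below belong to 2 genes that rose and the 1 that fell with Gαq, and the capitals mark the motif match. The Ankrd1 stretches are on the minus strand of chromosome 19 in 30-base windows around the MCAT matches, which read in the opposite direction, at chr19:36120037-36120066 and chr19:36119950-36119979. They lie in sequence that 1 annotated transcript with an earlier start counts as its first exon. The Xirp2 stretch is chr2:67445752-67446001 on the plus strand, with a MEF2 box. The Fhl2 stretch is chr1:43163962-43164211 on the minus strand, before the inner of its start sites, with a CArG box.

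Ankrd1 MCAT, outer: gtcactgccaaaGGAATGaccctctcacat
Ankrd1 MCAT, inner: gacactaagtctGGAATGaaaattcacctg
Xirp2: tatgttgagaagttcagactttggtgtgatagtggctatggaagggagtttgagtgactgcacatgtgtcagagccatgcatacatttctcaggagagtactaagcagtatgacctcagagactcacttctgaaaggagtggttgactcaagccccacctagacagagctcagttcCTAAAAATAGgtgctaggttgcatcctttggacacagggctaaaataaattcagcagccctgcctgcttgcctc
Fhl2: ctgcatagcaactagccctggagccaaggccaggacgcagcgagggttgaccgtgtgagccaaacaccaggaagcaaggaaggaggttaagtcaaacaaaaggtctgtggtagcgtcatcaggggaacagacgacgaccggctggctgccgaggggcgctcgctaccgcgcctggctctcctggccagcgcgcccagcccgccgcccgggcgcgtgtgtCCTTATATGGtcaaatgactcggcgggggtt

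The 2 MCAT matches of Ankrd1 began 210 and 123 bases before the start, and a GATA match lay 47 bases before it. MCAT occurred in 12.6% of 32851 RefSeq promoters of the same length, GATA in 22.6%, the MEF2 box in 2.92% and the CArG box in 1.47%. The outer start of Fhl2 also had a CArG box, a MEF2 box and a GATA match in its window. Among the other genes, Ttn had a MEF2 box, Fhl1 a CArG box at 1 of its starts and Flnc an MCAT match at 1 of its starts. Nrap, Csrp3 and Actn2 had no match of these 4 motifs in the windows.

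The genes differed widely in level. Compared per kb of exon length, so that a long transcript does not count for more, Ankrd1 was highest in WT CD hearts at 1262 ± 298 CPM per kb (SD, n = 4), followed by Actn2 at 742 ± 91.2, Csrp3 at 559 ± 95.6, Fhl2 at 425 ± 176 and Nrap at 301 ± 71.8. Xirp2 stood at 83.4 ± 7.69 CPM per kb. Fhl1, Flnc, Ttn and Xirp1 lay together between 51.7 and 56.2 CPM per kb in the mean. In this order the libraries of neighbouring genes overlapped from Csrp3 to Fhl2, from Fhl2 to Nrap and among the lowest 4 genes, and they did not overlap elsewhere.

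In Gαq CD hearts the order was Ankrd1 at 3180 ± 420 CPM per kb (SD, n = 5), Actn2 at 624 ± 110, Csrp3 at 617 ± 59.4, Nrap at 392 ± 56.9, Xirp2 at 220 ± 57.1 and Fhl2 at 123 ± 25.2. Fhl2 had thus moved below Nrap and Xirp2, while the lowest 4 genes stayed at means of 49.9 to 54.7 CPM per kb. Libraries of Actn2 and Csrp3 overlapped, as did those of Xirp2 and Fhl2. Titin was lowest per kb in 3 of the 4 groups. It still took 0.524% of all counts over its 116825 bases of exons, close to the 0.591% of Ankrd1 from 2886 bases. Exon length joins the exons of all annotated transcripts, 25 for Ttn. A level per kb is thus too low where the transcript made lacks some of them, which was not measured. The 10 genes together held 2.04% of all counts.

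The comparison of genotypes asked which of these genes respond to overexpressed Gαq. In the model that also held diet, 4 of the 10 genes passed the test, which was an adjusted p under 0.05 over all 16270 genes. Ankrd1, Xirp2 and Nrap were higher and Fhl2 was lower in Gαq. Of all genes tested 19.6% passed, 9.72% higher and 9.92% lower. On CD alone 3 of the 10 genes passed (2 higher, 1 lower) beside 8.1% of all genes (4.0% higher, 4.1% lower), and on ERTU alone 4 passed (3 higher, 1 lower) beside 8.17% (3.93% higher, 4.24% lower). The median log2 fold change by genotype over the 10 genes was -0.08, and over all genes 0.00377. All tests were quasi-likelihood F tests of edgeR with Benjamini-Hochberg adjustment. Tissue was sequenced in bulk, so that fewer cells of a type and less RNA per cell cannot be told apart.

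Ankrd1 (ENSMUSG00000024803, chromosome 19, 36111961 to 36120099, minus strand) encodes the cardiac ankyrin repeat protein, which binds titin in the I-band and also enters the nucleus. It stood at 2807, 4765, 3832 and 3168 CPM in the WT CD libraries and at 7811, 9216, 11082, 9229 and 8556 CPM in Gαq CD. On ERTU it was 3160.1, 2929.6, 3264, 2623 and 2977 CPM in WT and 7815, 9243, 7039.8 and 4662 CPM in Gαq. Every Gαq library lay above every WT library on CD, and the same held on ERTU, where Gαq ERTU library 20 was the lowest of its group and lay just below the highest WT CD library. Ankrd1 rose by 1.33 ± 0.18 (log2, SE) on CD, or 2.52-fold (adjusted p = 9.74e-05, edgeR), and by 1.27 ± 0.18 on ERTU, or 2.40-fold (adjusted p = 0.000116, edgeR). By genotype the rise was 2.46-fold (adjusted p = 2e-07, edgeR).

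Xirp2 (ENSMUSG00000027022, chromosome 2, 67446002 to 67526614, plus strand) encodes the larger Xin repeat protein, which binds actin at the intercalated disc. Its levels were 1043, 1107, 913 and 932 CPM in WT CD and 2493, 3265, 3364, 2361 and 1715 CPM in Gαq CD. On ERTU they were 755, 921, 704, 757 and 961 CPM in WT and 997, 3033, 1658 and 1176 CPM in Gαq. Groups of the 2 genotypes did not overlap on either diet. Gαq ERTU library 16, however, lay only just above the highest WT ERTU library and below the highest WT CD library. Xirp2 rose by 1.40 ± 0.26 (log2, SE) on CD, or 2.64-fold (adjusted p = 0.00148, edgeR), and by 1.07 ± 0.25 on ERTU, or 2.09-fold (adjusted p = 0.00898, edgeR). Without Gαq ERTU library 17 the rise on ERTU was 0.64 ± 0.19, still past the threshold (adjusted p = 0.0494, edgeR).

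Nrap (ENSMUSG00000049134, chromosome 19, 56320035 to 56390037, minus strand) encodes nebulin-related anchoring protein, a scaffold of myofibril assembly. It was 1475, 2237, 1356 and 1567 CPM in WT CD and 2619.5, 2179, 1768, 2214 and 2005 CPM in Gαq CD. On ERTU it was 1723, 1671, 1331, 1162 and 1312 CPM in WT and 2106, 3036, 2022 and 1568 CPM in Gαq. The genotypes overlapped on both diets, through WT CD library 2 on CD and Gαq ERTU library 20 on ERTU. By genotype Nrap rose by 0.49 ± 0.13 (log2, SE), or 1.40-fold (adjusted p = 0.00898, edgeR), in every fit that left out 1 library. On ERTU alone the rise of 0.60 ± 0.18 (adjusted p = 0.0464, edgeR) was lost in 12 of 18 such fits, with adjusted p up to 0.183 without Gαq ERTU library 17, and on CD alone the difference was 0.38 ± 0.18 (adjusted p = 0.246, edgeR).

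Fhl2 (ENSMUSG00000008136, chromosome 1, 43123074 to 43196984, minus strand) encodes a LIM-only protein that binds titin in the I-band, tethers metabolic enzymes there and is known as a brake on calcineurin. Its levels were 820.4, 691, 1256 and 460.2 CPM in WT CD and 209, 246.5, 245, 298 and 169 CPM in Gαq CD. On ERTU they were 618, 834, 733, 702 and 1256 CPM in WT and 228, 171, 203 and 231 CPM in Gαq. All 9 Gαq libraries lay below all 9 WT libraries, and the WT libraries spread more widely than the Gαq libraries. Fhl2 fell by 1.79 ± 0.24 (log2, SE) on CD, to a level 3.46-fold lower (adjusted p = 8.02e-05, edgeR), and its log2 fold change on ERTU was -1.99 ± 0.25, or 3.98-fold lower (adjusted p = 5.01e-05, edgeR). By genotype it was 3.71-fold lower (adjusted p = 1.07e-07, edgeR). By genotype its log2 fold change was the largest of the 10 in either direction.

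**Figure D1:**
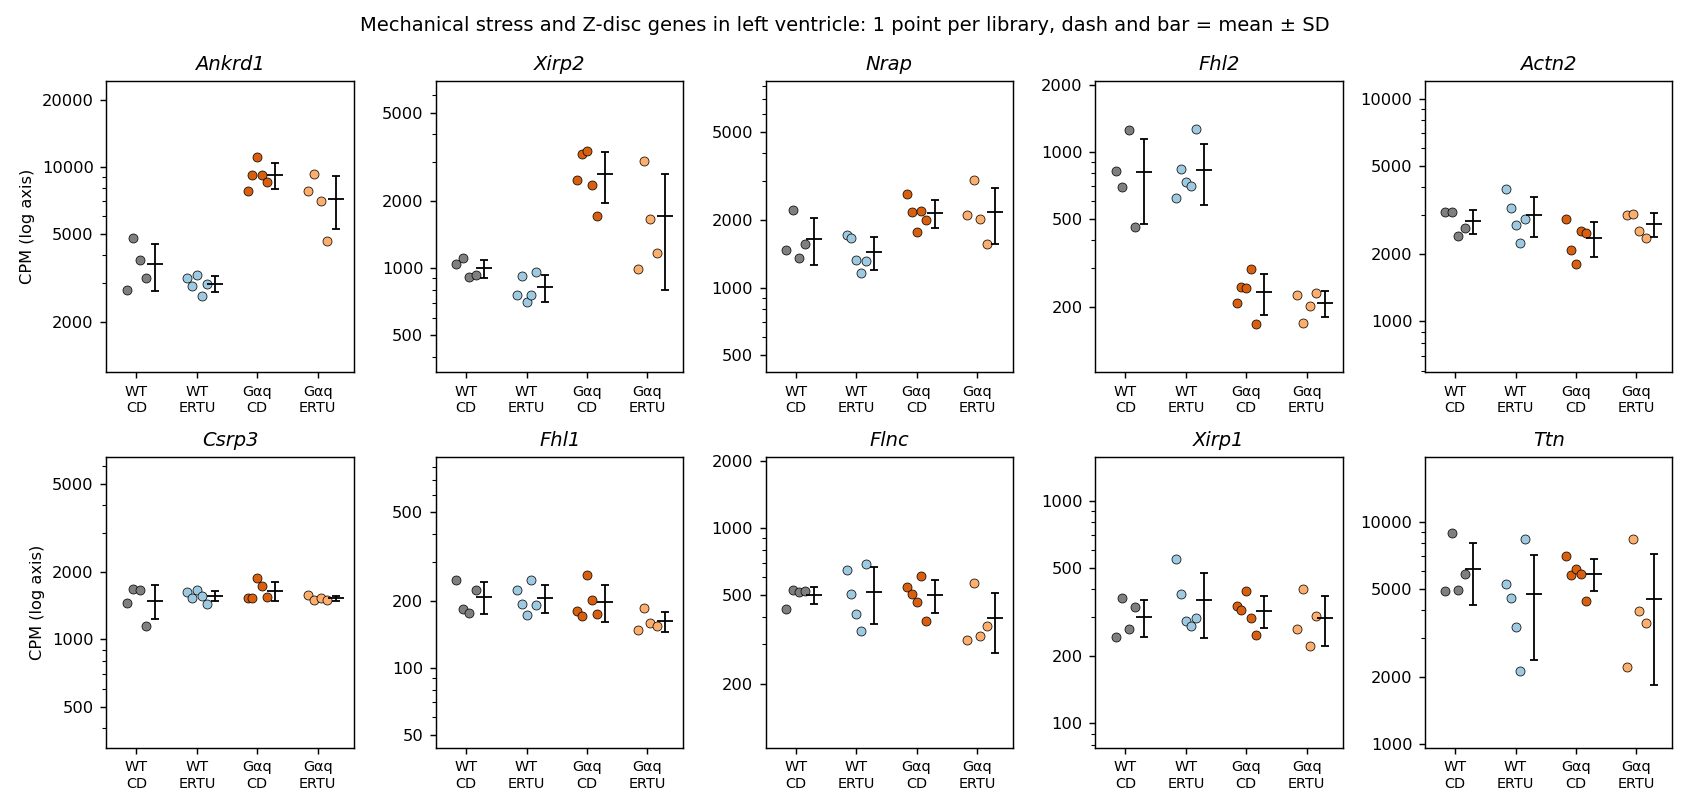
Levels of the 10 genes in CPM on a log axis, 1 point per library in each of the 4 groups, with a dash and bar for the mean ± SD (n = 4 or 5); all panels span the same range of fold. Within each diet Ankrd1 and Xirp2 sit higher and Fhl2 lower in Gαq with no overlap. Across diets this holds for Fhl2 alone, and Ttn spreads from 2122 to 8883 CPM with no order by group.

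On CD, 3 of the 10 genes did not overlap between the genotypes (Ankrd1 and Xirp2 higher, Fhl2 lower), beside 9.29% of all genes tested, and on ERTU the same was true of 3 genes beside 10.9%. The comparisons on CD and on ERTU set different hearts against each other, within 1 model that shares its estimate of the spread over all 18 libraries. The difference between them, the interaction of genotype and diet, was -0.07 for Ankrd1 (95% interval -0.59 to 0.45, log2), -0.34 for Xirp2 (-1.07 to 0.40) and -0.20 for Fhl2 (-0.90 to 0.50). For Nrap, called on ERTU but not on CD, it was 0.22 (-0.32 to 0.76).

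The other 6 genes were not past the threshold by genotype. Actn2 (chromosome 13, 12269426 to 12340760), which encodes the alpha-actinin of the Z-disc, ran from 2417 to 3110.2 CPM in WT CD and from 1814 to 2892 CPM in Gαq CD. Its log2 difference by genotype was -0.19, with a 95% interval from -0.42 to 0.03. Flnc (chromosome 6, 29433256 to 29461883), which encodes filamin C, ran from 433 to 528 CPM in WT CD and from 382 to 612 CPM in Gαq CD. Its log2 difference was -0.20 by genotype (-0.50 to 0.10), 0.00306 on CD and -0.40 on ERTU (-0.82 to 0.02).

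Csrp3 (chromosome 7, 48830398 to 48848033) encodes muscle LIM protein, a Z-disc partner of telethonin and alpha-actinin. It varied least of the 10 genes, from 1144 to 1887 CPM over all libraries. Its difference by genotype was 0.05 (log2, 95% interval -0.11 to 0.22). Fhl1 (X chromosome, 56731787 to 56793346), the LIM-only protein that joins the stretch-sensing complex on titin, was 172 to 262 CPM in Gαq CD and 148 to 186 CPM in Gαq ERTU, against 173 to 249 CPM in the 9 WT libraries. Its log2 difference by genotype was -0.21 ± 0.10 (SE; adjusted p = 0.152, edgeR). Without Gαq CD library 8, where Fhl1 was highest at 262 CPM, the difference was -0.28 and past the threshold (adjusted p = 0.0295, edgeR). The same library had the highest sums of its group for atrial (746 CPM), fibroblast (6889 CPM), smooth muscle (739.8 CPM) and fat markers (42.8 CPM). This held for macrophage (313 CPM) and skeletal muscle markers (4.94 CPM) too. It was also the highest library of Gαq CD for Ankrd1, Xirp2, Csrp3 and Xirp1, and the lowest for Actn2 and Nrap. In the other groups the highest sums of fibroblast, macrophage, atrial and fat markers likewise fell together, in WT CD library 5, WT ERTU library 14 and Gαq ERTU library 20. Gαq ERTU library 20 had more of the fat (106 CPM) and skeletal muscle markers (12.1 CPM) than Gαq CD library 8. It was the lowest library of Gαq ERTU for Ankrd1, Csrp3, Actn2 and Nrap. The part of these markers in the levels of Fhl1 and of these genes was not tested.

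Xirp1 (chromosome 9, 120013755 to 120023598), the smaller Xin repeat protein, did not pass the test that Xirp2 passed. It ran from 243 to 366 CPM in WT CD, 273 to 548 CPM in WT ERTU, 249.9 to 391 CPM in Gαq CD and 223 to 402 CPM in Gαq ERTU. The log2 difference by genotype was -0.09 (95% interval -0.39 to 0.21), whereas the interval of Xirp2 began at 0.86. The difference between the 2 genes was not tested.

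Ttn (chromosome 2, 76703980 to 76982547, minus strand) was 4863, 8883, 4904 and 5804 CPM in WT CD, 5223, 4542, 3371, 2122 and 8321 CPM in WT ERTU, 7016, 5748, 6137, 5839 and 4396 CPM in Gαq CD, and 2215, 8339, 3945 and 3519 CPM in Gαq ERTU. The groups overlapped in all comparisons, and within WT ERTU and Gαq ERTU the highest library was 3.92 and 3.76 times the lowest. The log2 difference by genotype was -0.07 with a wide 95% interval from -0.56 to 0.43.

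**Figure D2:**
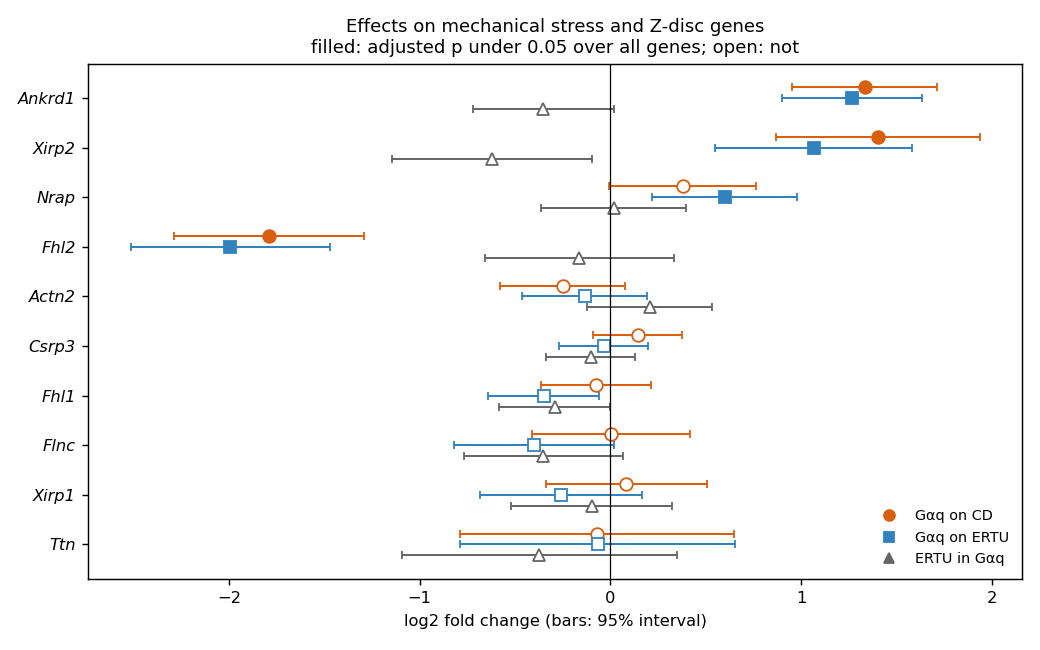
Log2 fold changes of the 10 genes for Gαq on CD (circles), Gαq on ERTU (squares) and ERTU in Gαq (triangles), with 95% intervals; filled symbols have an adjusted p under 0.05 over all genes. Ankrd1 and Xirp2 are filled on the right and Fhl2 on the left for both genotype comparisons, Nrap only on ERTU, and no triangle is filled.

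The comparison of diets asked whether ERTU changed these genes. None of the 10 passed the edgeR test for the effect of diet over both genotypes, within WT hearts, within Gαq hearts or in the interaction, and none passed the Wald test of DESeq2 in these comparisons. Over all genes edgeR called 0.0% by diet, 0.0% within WT, 0.00615% (1 gene) within Gαq and 0.0% in the interaction, where DESeq2 called 2, 0, 5 and 0 genes. At an unadjusted p under 0.05 in edgeR there were 2 of the 10 genes by diet (1252 of all genes, 7.7%), 0 within WT (365 genes), 2 within Gαq (1240 genes, 7.62%) and 0 in the interaction (313 genes).

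The 2 genes by diet were Ankrd1, at -0.32 ± 0.12 (log2, SE), and Xirp2, at -0.45 ± 0.18, each with an adjusted p of 0.639 in edgeR. In Gαq hearts Xirp2 was lower on ERTU than on CD by -0.62 on the log2 scale (95% interval -1.14 to -0.10, adjusted p = 0.653, edgeR), with 3 of 4 Gαq ERTU libraries below every Gαq CD library and library 17 inside their range. Over the 18 fits without 1 library the difference ran from -1.05 to -0.43, and 0 of them passed. Without library 17 it was -1.05 ± 0.20 (SE; adjusted p = 0.246, edgeR). Ankrd1 differed by -0.35 (-0.72 to 0.02) and Fhl1 by -0.29 (-0.58 to -2.77e-05), where the groups overlapped. Fhl2 differed by -0.16 (-0.66 to 0.33) and Nrap by 0.02 (-0.36 to 0.40). Gnaq itself differed by -1.22 ± 0.52 (SE) between the same groups (adjusted p = 0.653, edgeR), and its part in these values was not tested. ERTU in Gαq shares the Gαq CD libraries with Gαq on CD.

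The level of the transgene varied widely among the 9 Gαq libraries, as given above, and each gene was compared with Gnaq across them. The 10 Pearson correlations of log2 CPM ran from -0.34 for Actn2 to 0.85 for Flnc. Flnc had the smallest exact permutation p, 0.00908 (adjusted 0.0908 over 10 genes), with a Spearman rho of 0.73 (exact permutation p = 0.0311, adjusted 0.156) and r = 0.85 without the 2 libraries farthest from the median Gnaq. With the diet means removed its r was 0.78 (permutation p = 0.0133, adjusted 0.133). For Ankrd1 r was 0.50 (exact permutation p = 0.165, adjusted 0.235), for Xirp2 0.76 (exact permutation p = 0.0233, adjusted 0.107) and for Fhl2 0.64 (exact permutation p = 0.0644, adjusted 0.107). Fhl2 had the smallest p by rank, with a rho of 0.82 (exact permutation p = 0.0108, adjusted 0.108). Its correlation among Gαq libraries was thus positive, although Fhl2 was lower in Gαq than in WT. Mean Gnaq was 7473 CPM in Gαq CD and 3216 CPM in Gαq ERTU. With the diet means removed r was 0.28 for Ankrd1 (permutation p = 0.440, adjusted 0.507), 0.64 for Xirp2 (permutation p = 0.0593, adjusted 0.198) and 0.60 for Fhl2 (permutation p = 0.0882, adjusted 0.221). The p-values with diet means removed come from orders that ran across both diets and are approximate. None of the 10 was past the threshold after adjustment. No correlation was computed within a diet, with 5 and 4 Gαq libraries.

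The genes were also compared with each other after the group means were removed, so that only variation between hearts of the same group remained. Of 45 pairs, 3 had an adjusted p under 0.05 over 18 libraries. Flnc and Ttn varied together most closely (r = 0.87, permutation p = 0.0001, adjusted 0.00337, rho = 0.86, permutation p = 0.00012, adjusted 0.0054), and r was 0.77 without the 2 libraries farthest from the median of Flnc. Actn2 and Nrap followed (r = 0.75, permutation p = 0.00015, adjusted 0.00337, rho = 0.77, permutation p = 0.00088, adjusted 0.0198), with r = 0.70 without the 2 farthest libraries. Xirp2 and Ttn had r = 0.71 (permutation p = 0.00102, adjusted 0.0153, rho = 0.70, permutation p = 0.00284, adjusted 0.0426). That relation rested in part on the 2 farthest libraries, without which r was 0.48.

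Titin has by far the longest transcript of the 10, and a score of long transcripts moved with it. The score is the median log2 deviation from the mean of all libraries over 1355 other coding genes with at least 10000 bases of exons. It ran from -0.27 in Gαq ERTU library 16, where Ttn was 2215 CPM, to 0.15 in Gαq ERTU library 17, where Ttn was 8339 CPM. Across the 18 libraries the score correlated, group means removed, with Ttn (r = 0.84), Flnc (0.74), Xirp2 (0.73), Nrap (0.50) and Xirp1 (0.47). The value was 0.23 for Actn2, 0.15 for Fhl1, 0.08 for Ankrd1, -0.14 for Fhl2 and -0.35 for Csrp3. With the score as a covariate, added after the spread of Ttn was seen, the same 4 genes passed by genotype, and Xirp2 stood at 1.23 ± 0.13 (log2, SE). By diet Xirp2 stood at -0.36 ± 0.14 with the covariate (adjusted p = 0.799, edgeR) and at -0.45 ± 0.18 without it. What sets the score in a library was not tested.

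**Figure D3:**
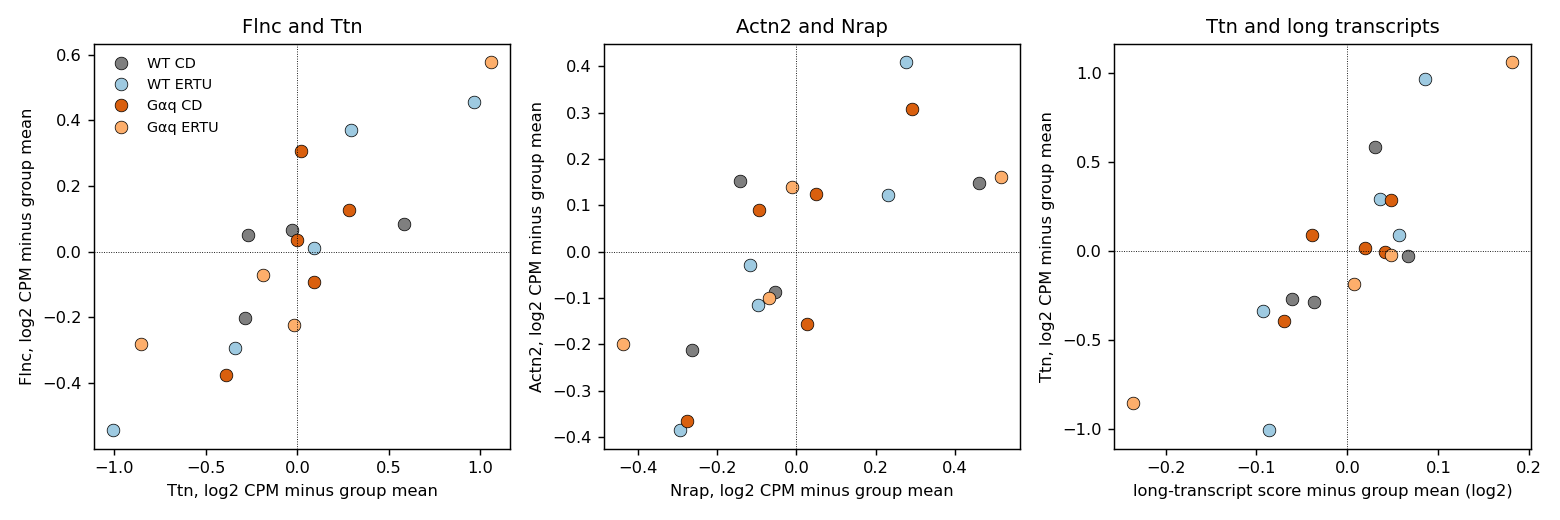
Deviations from the group mean in log2 CPM for Flnc against Ttn, Actn2 against Nrap, and Ttn against the long-transcript score, 1 point per library (18 in all, coloured by group). Points rise together in each panel, with r = 0.87, 0.75 and 0.84 from left to right, and Gαq ERTU library 17 has the highest deviation of both Flnc and Ttn.

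The genes whose deviations were most like those of single members are given as a description with no test, over 18 libraries and 13098 genes with a mean log2 CPM of at least 1. Taking the highest r of so many genes favours high values. For Ankrd1 the nearest genes were Hirip3 (r = 0.85), Hspb8 (0.80), a small heat shock protein of the Z-disc, and Ttf1 (0.78). For Csrp3 they were Bub3 (0.87), Cops8 (0.82) and Snupn (0.81), and for Fhl1 Angptl1 (0.89), Slc9a3r1 (0.85) and Dstn (0.83). For Xirp2 they were Pja2 (0.93), Ccser2 (0.90) and Chmp4c (0.90). For Ttn they were Erbb4 (0.96), the receptor for neuregulin, Utp20 (0.94) and Jmjd1c (0.93). For Fhl2, added after its values were seen, they were H2afy (0.90), Gm16793 (0.89) and Mrm1 (0.86).

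Around these 10 genes, 100 further genes of the same structures were described by list, 97 of which could be tested. The lists too were chosen with earlier results of these data known. By genotype 28 of the 97 passed the test, beside 19.6% of all genes, and 20 of the 28 did so in every fit that left out 1 library. Of the 24 other Z-disc genes 6 rose and 5 fell, with a median log2 fold change of -0.12. The largest rises were those of Synpo2l, which encodes an actin-binding Z-disc protein, at 1.17 ± 0.21 (log2, SE; 182 CPM in WT CD and 505 CPM in Gαq CD on average), and of Myoz1, at 1.24 ± 0.27 but at only 0.511 CPM in WT CD and 1.14 CPM in Gαq CD. Nexn, which encodes nexilin, rose by 0.41 ± 0.09. The largest falls were those of Synpo2 (-0.48 ± 0.07), Mypn (-0.44 ± 0.12), which encodes myopalladin, a partner of Ankrd1 protein at the Z-disc and I-band, and Fhod3 (-0.42 ± 0.13), a formin. Fhod3 was lost in 9 of 18 fits without 1 library. Scaled by cardiomyocyte markers, Mypn was lost at -0.32 (adjusted p = 0.05004, edgeR) and Fhod3 at -0.29 (adjusted p = 0.0654, edgeR).

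Of 16 titin and M-band partners, 3 rose and 2 fell (median -0.00422). Myom2, which encodes the M-band crosslinker myomesin 2, rose by 0.89 ± 0.14 (log2, SE), from 1912 CPM in WT CD to 3282 CPM in Gαq CD on average. Mybpc3, cardiac myosin binding protein C and also one of the cardiomyocyte markers, rose by 0.42 ± 0.11. Ankrd23, an ankyrin repeat relative of Ankrd1, rose by 0.33 ± 0.11 but was lost in 11 of 18 fits without 1 library, and Ankrd2 was too low to test. Cmya5, which encodes myospryn, fell by 0.51 ± 0.11, from 1333 CPM in WT CD to 907 CPM in Gαq CD. Capn3, the titin-bound protease calpain 3, fell by 0.77 ± 0.20 at about 1 to 2 CPM.

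Of 20 costamere and integrin adhesion genes 2 rose and 3 fell (median -0.03). Dtna, which encodes alpha-dystrobrevin, rose by 0.48 ± 0.08 (log2, SE), and Tln1, talin 1, by 0.25 ± 0.09, which was lost in 12 of 18 fits without 1 library. Itgb1bp2, which encodes melusin, a muscle partner of beta-1 integrin with a known role in the response to pressure load, fell by 0.54 ± 0.08. Lims1 and Lims2, the PINCH adaptors of integrin-linked kinase, fell by 0.34 ± 0.07 and 0.29 ± 0.06. Scaled by cardiomyocyte markers, as described below for all lists, both were lost, at -0.21 (adjusted p = 0.0616, edgeR) for Lims1 and -0.17 (adjusted p = 0.135, edgeR) for Lims2.

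Of 12 intercalated disc genes 1 rose and 3 fell (median -0.03). The desmosomal cadherin Dsg2 fell by 0.83 ± 0.13 (log2, SE), from 97.7 CPM in WT CD to 52.7 CPM in Gαq CD. The desmosomal plaque gene Pkp2 fell by 0.30 ± 0.09 and the tight junction scaffold gene Tjp1 by 0.27 ± 0.07, and Ctnnb1, beta-catenin, rose by 0.23 ± 0.05. Pkp2 was lost in 5 of 18 fits without 1 library. Scaled by cardiomyocyte markers, Pkp2 was lost at -0.17 (adjusted p = 0.236, edgeR) and Tjp1 at -0.15 (adjusted p = 0.336, edgeR).

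Of 16 stretch-responsive regulators and targets 2 rose and 0 fell by genotype (median -0.000391). On CD alone 1 was higher and 1 lower, and on ERTU alone 2 were higher and 0 lower. Rcan1, a calcineurin target that also inhibits calcineurin, rose by 1.17 ± 0.13 (log2, SE; adjusted p = 1.83e-06, edgeR), from 95.7 CPM in WT CD to 268 CPM in Gαq CD. Yap1, the coactivator of TEAD factors, rose by 0.27 ± 0.06. Among the paralogs of the members, Csrp1, Csrp2, Fhl3, Actn1 and Actn4 were not called.

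On CD alone the lists had 3, 2, 2, 2, 2 and 0 calls in the order given, and on ERTU alone 3, 1, 3, 1, 2 and 0, beside 8.1% and 8.17% of all genes. In the 3 comparisons of diets and in the interaction edgeR called 0 genes of every list. Scaling each library by its cardiomyocyte markers, in place of the composition factors alone, kept the sign of all 28 calls and left 19 of them past the threshold. It shifted the median of all genes by genotype to 0.13 (log2), and the genes called over the whole table from 1582 higher and 1614 lower to 2142 higher and 727 lower. On CD the split moved from 651 higher and 667 lower to 606 and 327, and on ERTU from 640 and 690 to 641 and 291. The same 4 of the 10 genes were called by genotype under this scaling, Ankrd1 at 1.43, Xirp2 at 1.35, Nrap at 0.61 and Fhl2 at -1.73 (log2).

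**Figure D4:**
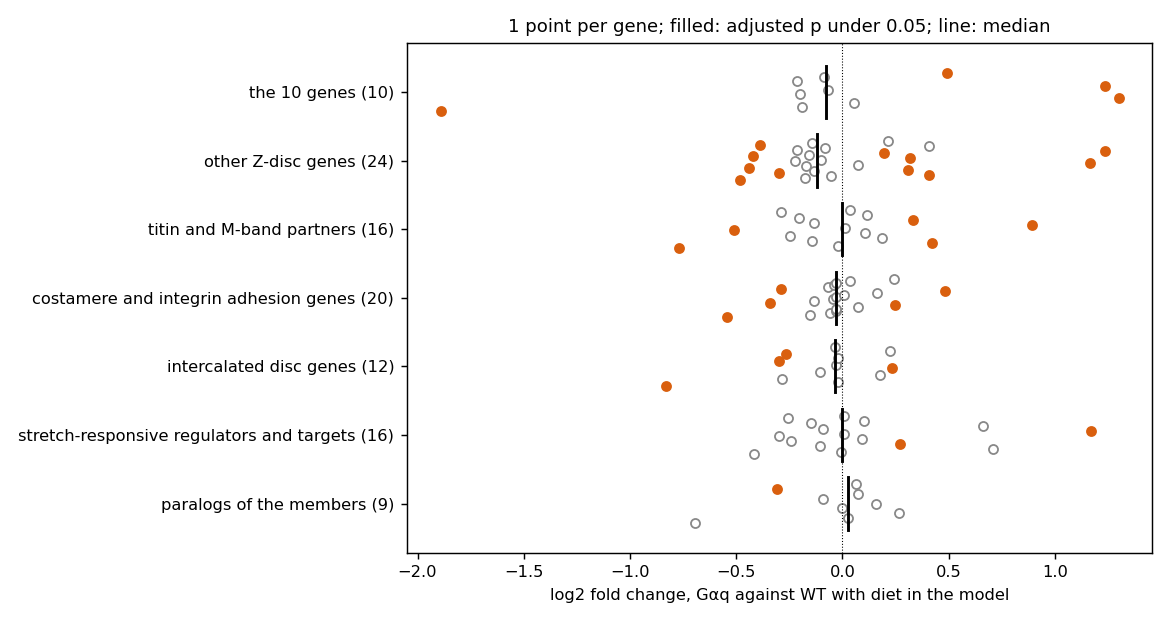
Log2 fold change of Gαq against WT, with diet in the model, for the 10 genes and the tested genes of 6 lists, 1 point per gene; filled points have an adjusted p under 0.05 and the line is the median of the list. Fhl2 is the lowest point of the plot at -1.89 and Ankrd1 the highest at 1.30, while the medians lie between -0.12 and 0.03.

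Cell type markers that moved with genotype are given beside these results. Of the 8 fibroblast markers 5 were higher and 0 lower in Gαq, and their sum ran from 3116 to 6001 CPM in WT CD and from 4562 to 6889 CPM in Gαq CD, and from 3320.3 to 5787 CPM in WT ERTU and from 5211 to 6127 CPM in Gαq ERTU. Of the 10 cardiomyocyte markers 1 was higher and 4 were lower, with sums that overlapped between genotypes on both diets. Of the 6 endothelial markers 2 were lower, of the 6 macrophage markers 1 was higher, and of smooth muscle (5), atrial (4 tested) and fat markers (4 tested) 0 were called. The median log2 fold change by genotype was nevertheless 1.65 for the atrial and 0.98 for the fat markers, whose sums ran in single libraries from 2.37 to 746 CPM and from 1.69 to 106 CPM. Of the 5 skeletal muscle markers that could be tested 2 were higher, both under 3 CPM in every library, and the skeletal myosin Myh4 was at 0 in every WT library. The part of these cell types in the differences of the 10 genes was not tested. The scaling by cardiomyocyte markers cannot test it, because 1 of the markers that set the scale was itself higher and 4 were lower in Gαq.

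Overlapping genes took few of the reads at these loci. Genes on the opposite strand that overlap exons of Xirp2, Nrap and Ttn held 16 to 53 counts each over all 18 libraries, against 523212 counts for Xirp2, 604191 for Nrap and 1709043 for Ttn. Cx3cr1, on the same strand as Xirp1, and the pseudogene Gm8210 within Fhl2 shared no exon base with them. Cx3cr1 held 2912 counts beside 104680 for Xirp1, and Gm8210 held 6492 beside 164821 for Fhl2.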

How the data were processed

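RNA of left ventricle was measured in 18 libraries in 4 groups. The authors made poly(A)-selected libraries, aligned read pairs to mouse build mm10 with STAR 2.6.0c and counted uniquely aligned pairs per Ensembl gene with featureCounts (Subread 1.6.2), and they deposited raw counts. A second deposited table of transformed values was not used. Of 55450 gene IDs, 55190 matched the GENCODE M21 annotation (GRCm38), which gave symbols, positions and exon lengths. Columns were mapped to groups by name, and their numbers were not linked to those of the labels.

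Counts were fitted in R 4.3.3 with edgeR 4.0.16 (TMM scaling, filterByExpr on the 4 groups, quasi-likelihood F tests). Genotype and diet came from a model with both factors, and the other 5 comparisons from contrasts between group means. Benjamini-Hochberg adjustment ran over 16270 genes, with a threshold of 0.05. SE is the log2 fold change divided by the root of F. The 95% intervals use the total degrees of freedom of the test (19.5 or 20.5), the residual ones plus those from pooling over genes. Genes removed by the filter made up 0.0906% of counts. Log2 CPM used a prior count of 2. Correlations used exact permutations (9 libraries) or 100000 resamples within groups (18 libraries), two-sided. The steps were tested on simulated data. No sample was left out. Precision was taken from the spread between libraries, not from counting error.

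The members and lists were chosen with earlier results of these data known. Beside the 10 genes, the text names up to 3 genes with the largest rise and 3 with the largest fall by genotype from each list, and the 3 nearest genes of 5 members. The nearest genes of Fhl2 and the untested or uncalled genes mentioned by name were added after their values were seen. Other settings were no filter, size factors by median of ratios, DESeq2 1.42.0, scaling by cardiomyocyte markers, only the 2 groups compared, each library left out in turn, and the long-transcript covariate, which was chosen after seeing the data. The result of 1 listed gene is not reported here.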

Additional observations from a re-analysis of the deposited data

Results flagged for a closer look

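In WT CD library 1, Flnc was 433 CPM, while the other 3 libraries of the group lay between 517 and 528 CPM. The gap to the nearest library was 0.890 of the range of the group, above the critical value for 4 libraries. It was the only one of 40 sets of values (10 genes in 4 groups) to stand out in this way, where chance gives about 2. Flnc was not called in any comparison.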

How the results depend on the processing

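The number of the 10 genes called, in each of the 7 comparisons, stayed within 1.5 times the reported number under every alternative run. Of 1650 values of single genes under the alternatives, 14 changed their call and 0 reversed. Of these, 13 were Nrap for Gαq on ERTU, lost with only the 2 groups compared (adjusted p = 0.0643) and in 12 fits without 1 library (log2 fold changes over all 18 such fits from 0.40 to 0.73), and 1 was Fhl1 by genotype, gained without Gαq CD library 8. The cause was not tested. A further 63 values that were not called changed sign. By genotype, leaving out each library gave 1.24 to 1.37 for Ankrd1, 1.06 to 1.33 for Xirp2, 0.39 to 0.58 for Nrap and -1.99 to -1.76 for Fhl2. Xirp2 for Gαq on ERTU ran from 0.64 to 1.25 and depended most on Gαq ERTU library 17.

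No paired analysis was possible because each column's number occurs in 1 group alone, so the planned replicate block was not run. The lowest count of any of the 10 genes in a library was 2432, and what limited the calls was not tested.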
